A study of Mus musculus with 30 samples.

Results

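The Wnt ligands studied here were Wnt2, Wnt2b, Wnt4, Wnt5a, Wnt5b, Wnt7b, Wnt9a, Wnt10b, Wnt11 and Wnt16, found by symbol in the gene columns of the aorta and kidney count tables: 10 of the 41128 genes listed in each. Total RNA of aorta or kidney tissue was sequenced in 30 libraries from 27 male mice on a C57BL/6 background. The libraries comprised 3 WT-SFD, 4 WT-HFD, 3 KO-SFD and 4 KO-HFD aortas and 4 kidneys in each of the same 4 groups. KO mice carried loxP sites in both copies of Egfr and a Cre recombinase that tamoxifen switches on, driven by the Smmhc (Myh11) promoter of smooth muscle, WT mice carried the same Cre transgene without loxP sites, and all mice received tamoxifen. High-fat diet (HFD) or standard-fat diet (SFD) was fed for 18 weeks from an age of 6 weeks. The transgene lies on the Y chromosome, which restricts the model to males. The deletion is directed at smooth muscle cells, whereas tissue of mixed cell types was sequenced. Of the organs taken, the study froze some parts and fixed others. Of the mice, 3 gave both an aorta and a kidney.

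Wnt proteins are secreted, lipid-modified glycoproteins that act over short distances. They bind Frizzled receptors. With the co-receptors Lrp5 or Lrp6 this stabilises beta-catenin, which acts with TCF/LEF factors in the nucleus, whereas with Ror receptors or planar polarity proteins the signal runs without beta-catenin. Secreted proteins of the Sfrp, Dkk, Wif and Sost families limit the signal, and R-spondins strengthen it through Lgr receptors. In the vessel wall Wnt signalling is known for its part in smooth muscle growth and matrix turnover. In the developing kidney Wnt9b, Wnt11, Wnt4 and Wnt7b guide branching of the ureteric bud, formation of nephrons and growth of the medulla.

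The start regions of Wnt9a and Wnt16 are shown because these ligands had the smallest p values in the aorta, and that of Wnt11 because it was among the 3 most variable ligands in the kidney. The 250 bases before a RefSeq start (build GRCm38.p6, plus strand for all 3 genes) lie at chr11:59306680-59306929 for Wnt9a, chr6:22287977-22288226 for Wnt16 and chr7:98834862-98835111 for Wnt11. Capitals mark matches to the AP-2 word GCCNNNGGC, which reads the same on both strands, and to the TCF/LEF word CTTTGAT, searched on both strands.
Wnt9a: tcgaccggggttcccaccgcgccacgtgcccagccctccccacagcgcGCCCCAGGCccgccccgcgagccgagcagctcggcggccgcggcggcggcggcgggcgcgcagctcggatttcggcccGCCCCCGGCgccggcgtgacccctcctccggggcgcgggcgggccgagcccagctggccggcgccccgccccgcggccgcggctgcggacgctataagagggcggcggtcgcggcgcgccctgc
Wnt16: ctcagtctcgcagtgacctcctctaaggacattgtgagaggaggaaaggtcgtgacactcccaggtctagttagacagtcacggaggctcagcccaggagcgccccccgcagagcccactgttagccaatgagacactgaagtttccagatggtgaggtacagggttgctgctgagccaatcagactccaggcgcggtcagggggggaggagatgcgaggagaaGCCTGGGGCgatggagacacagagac
Wnt11: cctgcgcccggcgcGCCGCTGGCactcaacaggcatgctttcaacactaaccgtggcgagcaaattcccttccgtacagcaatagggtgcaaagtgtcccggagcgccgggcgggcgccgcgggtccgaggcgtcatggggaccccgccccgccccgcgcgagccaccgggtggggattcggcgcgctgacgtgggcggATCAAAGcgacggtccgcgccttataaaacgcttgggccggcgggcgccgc
Of the 11 windows of the ligands, 8 held the AP-2 word, among them a second start of Wnt11 with 2 matches. Wnt9a held 2 AP-2 words (202 to 194 and 124 to 116 bases before the start), Wnt16 held 1 (26 to 18 bases before) and Wnt11 held 1 (236 to 228 bases before). The Wnt11 window also held the TCF/LEF word on the opposite strand, as ATCAAAG, 51 to 45 bases before the start. Among all 32851 RefSeq windows of this length, 13.7% held the AP-2 word and 3.21% held CTTTGAT. All fixed bases of the AP-2 word are G or C, and the 11 ligand windows ran from 53.2% to 85.2% GC. The shares over all windows were not matched for GC content, so these counts show no enrichment of the word. A second TCF/LEF word, CTTTGAA (4.46% of windows), and the CArG box bound by serum response factor (1.47%) were absent from the 3 windows shown. The Wnt9a window was 84.4% GC with 48 CpG dinucleotides, that of Wnt11 70.8% with 37, and that of Wnt16 59.2% with 9. RefSeq windows were found for 8 of the 10 ligands, and among them 1 window of Wnt5b also held CTTTGAT.

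Wnt2, Wnt5b and Wnt16 share chromosome 6, and Wnt7b and Wnt10b share chromosome 15. In GRCm38, Wnt9a (ENSMUSG00000000126) spans chr11:59306928-59333552 and Wnt16 (ENSMUSG00000029671) spans chr6:22288227-22298522. Wnt7b (chr15:85535437-85582473), Wnt5a (chr14:28504750-28527448) and Wnt11 (chr7:98835112-98855195) share exon bases with genes on the opposite strand, namely 324 with AU022754, 358 with Gm2670 and 364 with Gm8398. As the strand setting of the counting is not given in the sources used here, reads from these partners cannot be told apart.

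Depth per library was 6403699 to 13052870 counts in the aorta (median 8998366) and 16354880 to 28331314 in the kidney (median 19544128). Levels are given as FPM, edgeR's counts per M reads with TMM scaling, and, to compare genes with each other, as FPKM, FPM per kilobase of merged exons. The tissues were checked by their markers. In the aortas the smooth muscle actin gene Acta2 stood at 4235 to 8745 FPM, and in the kidneys the thick limb gene Umod stood at 2543 to 5688 FPM. No gene on chromosomes 9, X, Y, the mitochondrial genome or the distal part of chromosome 8 had a count in any library. This touches no Wnt ligand, but the smooth muscle markers Tagln and Cnn1 and the Wnt genes Porcn, Ryk and Ctnnb1 are listed at 0, and nothing can be said of their expression.

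The targeted gene, Egfr, was at 46.7, 39.5 and 54.3 FPM in WT-SFD aortas, 65.1, 57.0, 51.2 and 57.0 in WT-HFD, 26.8, 35.5 and 28.0 in KO-SFD and 27.5, 40.6, 39.7 and 33.4 in KO-HFD. Within each diet all KO aortas lay below all WT aortas. KO against WT gave a log2 fold change of -0.64 on SFD (SE 0.166) and -0.70 on HFD (SE 0.142), with edgeR adjusted p values of 0.531 and 0.130. In the kidney it was 0.09 (SE 0.132) on SFD and -0.09 (SE 0.133) on HFD, and the groups overlapped.

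Before the comparisons, 4 aortas stood apart by their content of fat transcripts. The mean of the 15 adipocyte markers, all of them tested, was 8.19 and 7.79 log2 CPM in WT-SFD replicates 1 and 2 and 7.49 and 6.00 in KO-SFD replicates 1 and 2, and 2.63 to 4.61 in the other 10 aortas. The summed level of the list was 7151, 5315, 4387 and 1604 FPM in these libraries and 592 to 833 FPM in the others, and no marker was at 0. Plin4, the gene of the list with the highest mean over all 14 aortas, separated them less, at 645, 571, 524 and 341 against 318 to 440 FPM. Fabp4, a fatty acid carrier, averaged 807 ± 674 FPM in WT-SFD (SD, n = 3) and 52.2 ± 12.3 FPM in WT-HFD aortas (SD, n = 4). All 4 were on SFD, which leaves 1 adipocyte-poor aorta in each SFD group (replicate 3 of each), so fat content and diet are largely confounded in the aorta, and values without these libraries are given beside the aortic results, from a fit that keeps 1 mouse in each SFD group.

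Per length, Wnt5a and Wnt16 led in the aorta. Wnt5a, which signals mainly without beta-catenin, averaged 5.93 ± 1.02 FPKM (SD, n = 14), and Wnt16, known from cortical bone, averaged 5.70 ± 1.32 FPKM (SD, n = 14). Wnt5a was the higher of the pair in 8 of 14 aortas, so that these neighbours did not differ beyond their spread. Wnt2b (3.27 ± 0.585 FPKM) followed, above Wnt9a (2.74 ± 0.592 FPKM) in 12 aortas, and Wnt9a was above Wnt4 (0.715 ± 0.274 FPKM) in all 14. Wnt11 (0.484 ± 0.235), Wnt5b (0.473 ± 0.225), Wnt2 (0.447 ± 0.505) and Wnt10b (0.294 ± 0.124 FPKM) were close together, and each of the first 3 exceeded the next in 6, 9 and 8 of 14 aortas. Wnt7b had at most 2 counts and none in 11 of 14 aortas, where 0 counts allow at most 3. Wnt5a, Wnt16, Wnt2b and Wnt9a together made up 85.8% of the summed FPKM of all 19 mouse Wnt genes, and the 10 ligands 97.8%. The order was the same with coding length in place of exon length.

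In the kidney Wnt7b, a ligand made by the collecting duct epithelium, led with 5.22 ± 2.92 FPKM (SD, n = 16). It was above Wnt5b (3.27 ± 0.821 FPKM) in 11 of 16 kidneys, Wnt5b was above Wnt5a (2.32 ± 0.665 FPKM) in 12, and Wnt5a was above Wnt4 (2.09 ± 1.68 FPKM) in 10. Wnt11 (1.33 ± 0.845 FPKM) was above Wnt9a (0.778 ± 0.218 FPKM) in 11. From Wnt9a downwards the order was clearer, with Wnt2b at 0.426 ± 0.0956, Wnt2 at 0.225 ± 0.0905 and Wnt16 at 0.0811 ± 0.0404 FPKM, each above the next in at least 15 of 16 kidneys. Wnt10b had 0 to 3 counts, with none in 7 kidneys. With coding length Wnt5b moved to a place behind Wnt5a and Wnt4. The 10 ligands made up 85.9% of the kidney's summed Wnt FPKM, and Wnt9b, outside the list, added 9.30%. Aorta and kidney were sequenced at different sites, so that tissue and site cannot be told apart and no test was run between them.

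**Figure D1:**
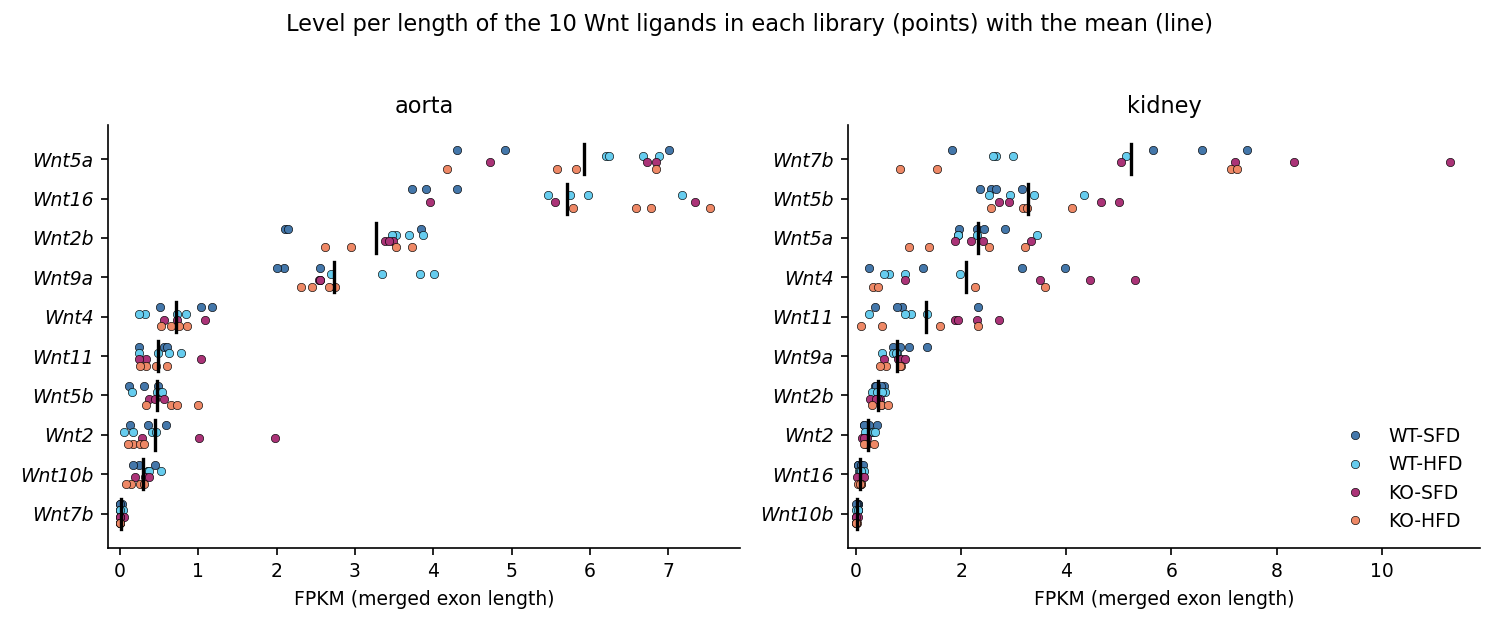
FPKM of the 10 Wnt ligands in each of 14 aortas (left) and 16 kidneys (right), with 1 point per library coloured by group and a line at the mean. Wnt5a and Wnt16 lead in the aorta and Wnt7b leads in the kidney, where its points spread from 0.840 to 11.3 FPKM.

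HFD against SFD in WT aortas was the comparison with the smallest p values among the ligands: Wnt9a and Wnt16 were higher in each HFD aorta than in each SFD aorta, but no ligand passed the adjusted test. An edgeR quasi-likelihood model per tissue held all its libraries. Calls needed an adjusted p under 0.05 over every gene past the count filter, 14796 in the aorta, among them 9 of the 10 ligands. In this comparison edgeR called 0% of all genes and 0 of 9 ligands. At an unadjusted p under 0.05 it listed 17.0% of all genes and 3 of 9 ligands, and groups did not overlap for 8.96% of all genes and 2 of 9 ligands. DESeq2 called 666 genes, Wnt9a and Wnt16 among them. The median log2 fold change was 0.40 over the ligands, with 7 positive and 2 negative, and -0.01 over all genes.

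Wnt9a, known from joint development, was at 6.96, 6.67 and 8.52 FPM in WT-SFD and at 13.4, 12.8, 8.97 and 11.1 FPM in WT-HFD aortas. The lowest HFD value lay just above the highest SFD value, and group means came to 7.38 ± 0.996 (SD, n = 3) and 11.6 ± 1.97 FPM (SD, n = 4). The log2 fold change was 0.65 (SE 0.169, edgeR adjusted p = 0.0714), and DESeq2 gave 0.66 with an adjusted p of 0.0295. A figure of the study shows Wnt9a from these aortas, so its values here are not independent evidence.

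Wnt16 was at 16.2, 18.8 and 17.0 FPM in WT-SFD and at 31.3, 23.8, 26.1 and 25.1 FPM in WT-HFD aortas. The groups were clear of each other, and averaged 17.3 ± 1.29 (SD, n = 3) and 26.6 ± 3.30 FPM (SD, n = 4). The log2 fold change was 0.61 (SE 0.176, edgeR adjusted p = 0.0838), and DESeq2 gave 0.62 with an adjusted p of 0.0357. Wnt16 followed the fibroblast markers (7 of 8 tested, Clec3b listed at 0, summed level 1333 to 2794 FPM, led by Col1a1) with r = 0.77 over 14 aortas that share the library scale. With their mean as a covariate its log2 fold change was 0.40 (SE 0.149, edgeR adjusted p = 0.341).

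Wnt2b, a close relative of Wnt2, was at 8.87, 9.02 and 16.2 FPM in WT-SFD and at 15.5, 14.8, 14.6 and 16.2 FPM in WT-HFD aortas. The 2 low values belong to the adipocyte-rich replicates 1 and 2, and the adipocyte-poor replicate 3 was level with the HFD mice. Its log2 fold change was 0.43 (SE 0.195, edgeR adjusted p = 0.270). Without the 4 adipocyte-rich aortas it was -0.08 (SE 0.220). Wnt5a had the same arrangement, with 38.5, 33.6 and 54.9 FPM in WT-SFD and 48.6, 48.8, 52.2 and 53.8 in WT-HFD, and a log2 fold change of 0.27 (SE 0.184, edgeR adjusted p = 0.499). Without the 4 rich aortas Wnt5a too changed sign, to -0.11 (SE 0.196).

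Wnt9a and Wnt16 kept their sign without the 4 adipocyte-rich aortas. Wnt9a then had a log2 fold change of 0.44 (SE 0.275, edgeR adjusted p = 0.839) and Wnt16 of 0.64 (SE 0.202, edgeR adjusted p = 0.750), with 1 WT-SFD mouse left. With the adipocyte mean as a covariate the values were 0.52 (SE 0.204, edgeR adjusted p = 0.613) for Wnt9a and 0.56 (SE 0.209, edgeR adjusted p = 0.606) for Wnt16. Without WT-SFD replicate 3, edgeR called 1907 genes, among them Wnt9a (0.77, adjusted p = 0.0162) and Wnt2b (0.77, adjusted p = 0.00628).

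The other 5 ligands tested in the aorta were low and had standard errors of 0.404 or more in this comparison. Wnt4 was at 4.37, 4.92 and 2.17 FPM in WT-SFD and at 1.33, 3.52, 3.02 and 1.02 FPM in WT-HFD aortas, with a log2 fold change of -0.78 (SE 0.404, edgeR adjusted p = 0.350). The 2 higher SFD values were again those of the adipocyte-rich aortas. Wnt5b was at 0.819, 0.308 and 1.30 FPM in WT-SFD and at 0.408, 1.31, 1.25 and 1.41 FPM in WT-HFD. Wnt11 was at 2.32, 2.46 and 1.01 FPM in WT-SFD and at 1.02, 2.01, 2.61 and 3.20 FPM in WT-HFD. Both overlapped between the diets, at 3 to 28 and 7 to 32 counts per aorta over all groups. Wnt10b (0.40), Wnt5b (0.49), Wnt11 (0.14) and Wnt2 (-0.47) had log2 fold changes smaller than their standard errors. Without the 4 rich aortas Wnt4 was at 0.06 (SE 0.661) and Wnt5b at -0.26 (SE 0.810), both with the opposite sign, and Wnt10b was at 1.21 (SE 0.837) and Wnt11 at 1.09 (SE 0.785). Wnt2 did not pass the count filter in that fit.

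**Figure D2:**
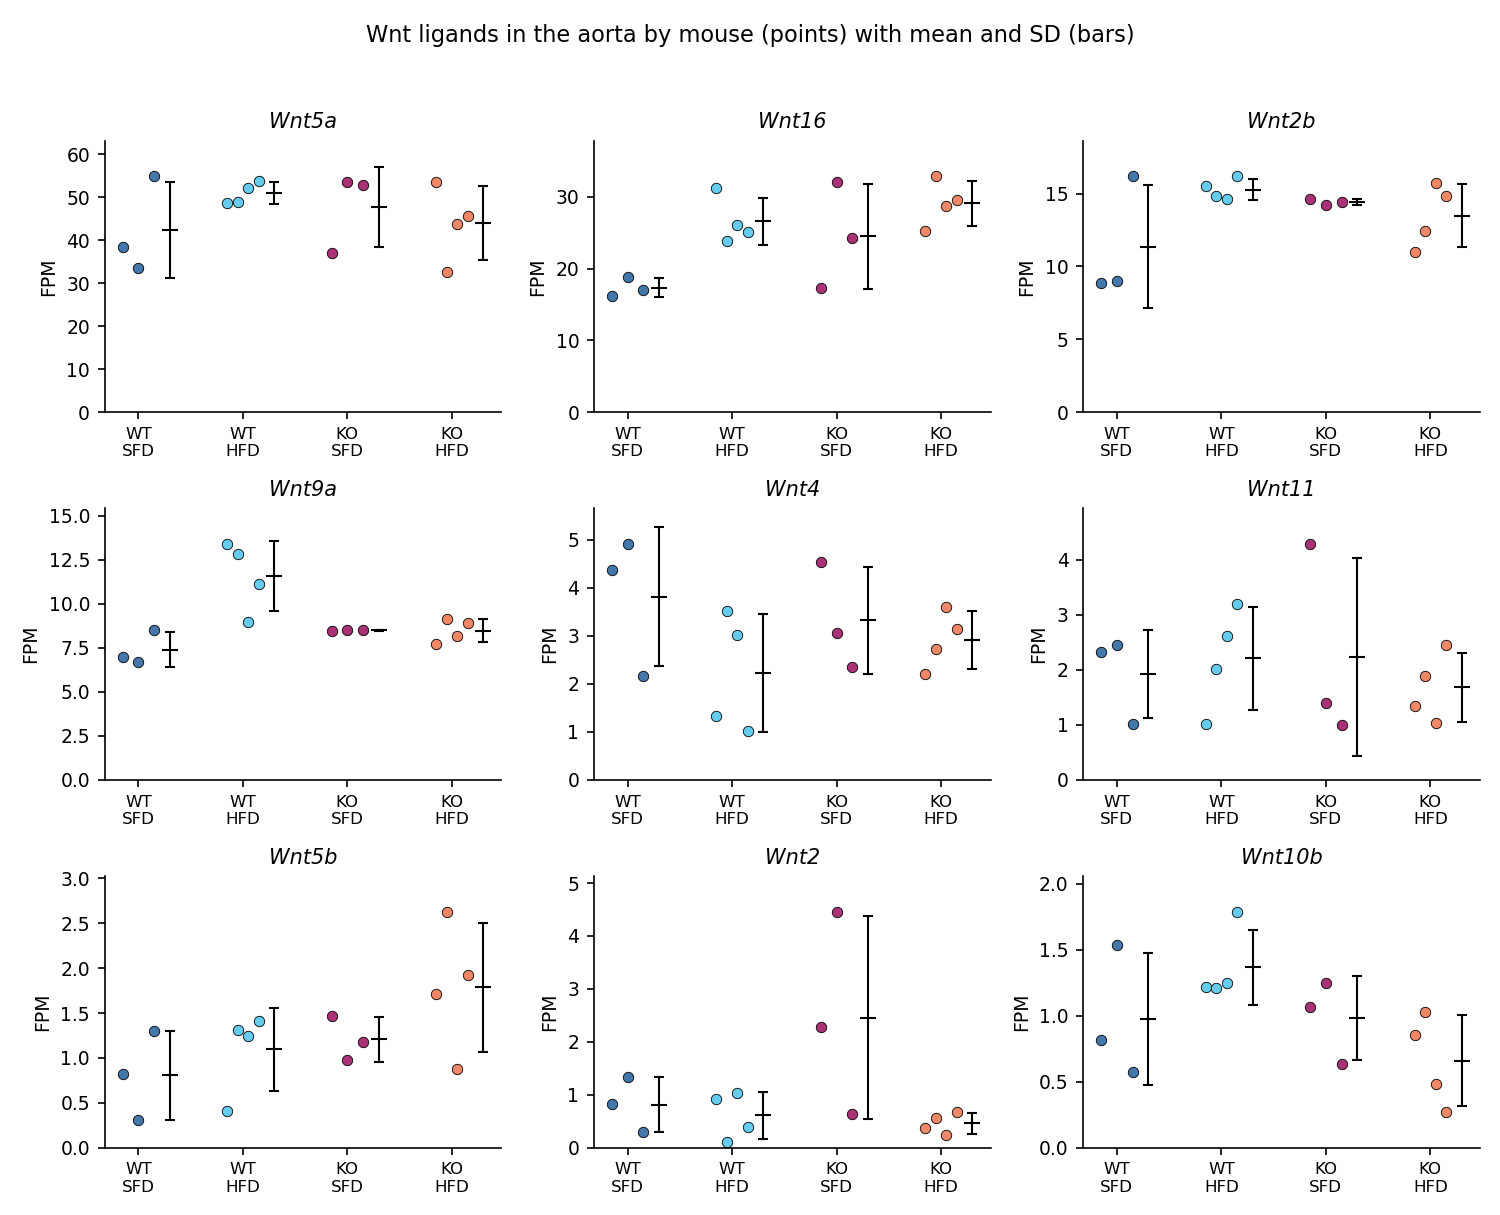
FPM of the 9 ligands tested in the aorta, by group, with 1 point per mouse and the mean with SD beside the points. Wnt9a and Wnt16 show WT-SFD points below all WT-HFD points, and Wnt2 shows 2 high KO-SFD mice.

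For HFD in KO aortas the differences of the 4 most abundant ligands lay within 2 standard errors, and that of Wnt9a was 0.00. No gene was called by edgeR (0% of all genes), and 7.85% of all genes and 1 of 9 ligands had an unadjusted p under 0.05. Groups did not overlap for 7.04% of all genes and none of the 9 ligands, and DESeq2 called 8 genes but no ligand. Wnt9a was at 8.44, 8.50 and 8.52 FPM in KO-SFD and at 7.70, 9.11, 8.16 and 8.89 FPM in KO-HFD aortas. The KO-SFD values lie inside the KO-HFD range (standard error of the difference 0.167). Wnt16 was at 17.3, 32.0 and 24.2 FPM in KO-SFD and at 25.2, 32.9, 28.7 and 29.5 FPM in KO-HFD aortas. Its log2 fold change was 0.25 (SE 0.173), from 0.05 without KO-SFD replicate 1 to 0.49 without KO-SFD replicate 2. Without the 4 rich aortas Wnt9a was at -0.01, Wnt16 at 0.27, Wnt2b at -0.10 and Wnt5a at -0.27. Of the less abundant ligands, Wnt4 (-0.15), Wnt11 (-0.39) and Wnt10b (-0.49) then changed sign, to 0.32, 0.70 and 0.08, with standard errors of 0.562 or more.

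The ligand with an unadjusted p under 0.05 in KO aortas was Wnt2, known for its part in lung formation. Wnt2 was at 2.28, 4.46 and 0.634 FPM in KO-SFD and at 0.367, 0.563, 0.24 and 0.684 FPM in KO-HFD aortas. The 2 high values belong to the adipocyte-rich replicates 1 and 2, and the third SFD mouse lay within the HFD range. Counts were 7 to 32 in KO-SFD and 3 to 6 in KO-HFD aortas. In the fit to all 14 aortas Wnt2 passed the count filter only with these 2 high aortas, so it was tested through its high group. Diet gave it a log2 fold change of -2.35 (SE 0.683, edgeR adjusted p = 0.526). With the adipocyte mean as a covariate it was -1.39 (SE 0.767, edgeR adjusted p = 0.999), and without the 4 rich aortas Wnt2 was too low to be tested. Over all 14 aortas Wnt2 correlated with the adipocyte mean at r = 0.61, Wnt4 at 0.57, Wnt11 at 0.53 and Wnt10b at 0.44. Wnt2b, Wnt16, Wnt5a, Wnt9a and Wnt5b had -0.62, -0.58, -0.56, -0.51 and -0.42. Within groups Wnt16 had only -0.17, whereas Wnt2b, Wnt5a and Wnt9a had -0.66, -0.71 and -0.50. Wnt2, Wnt4, Wnt11 and Wnt10b had 0.59, 0.53, 0.69 and 0.62 within groups, and Wnt5b had -0.20. Endothelial markers (6 of 7 tested, Cdh5 listed at 0, led by Pecam1, summed level 461 to 662 FPM) moved with several of the same ligands, at r = 0.69 for Wnt4, 0.57 for Wnt2, -0.65 for Wnt5a and -0.59 for Wnt2b. These points share the library scale, and the part of endothelial content in the results was not tested.

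KO against WT on SFD called 12 genes (0.0811% of all genes) and none of the 9 ligands. Unadjusted p values under 0.05 were found for 6.54% of all genes and 1 of 9 ligands, groups did not overlap for 8.57% of all genes and no ligand, and DESeq2 called 21 genes but no ligand. The one ligand was Wnt16, with 24.5 ± 7.38 FPM in KO (SD, n = 3) against 17.3 ± 1.29 FPM in WT (SD, n = 3). KO-SFD replicate 1, at 17.3 FPM, lay within the WT range. Its log2 fold change was 0.50 (SE 0.187, edgeR adjusted p = 0.708), from 0.28 without KO-SFD replicate 2 to 0.69 without KO-SFD replicate 1, and was 0.51 (SE 0.244) without the 4 adipocyte-rich aortas. With library totals in place of TMM the median of all genes moved to 0.27 in this comparison and the ligands with it, so that signs here are relative to the TMM scale.

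Leucocyte markers stood higher in KO-SFD aortas too. Of 7 markers 6 were tested, Cd3e being listed at 0, and 3 of the 6 were higher at an unadjusted p under 0.05, with a median log2 fold change of 0.97. Their summed level was 59.1, 55.8 and 62.4 FPM in WT-SFD and 141, 85.8 and 93.7 FPM in KO-SFD aortas. Csf1r, a receptor gene of macrophages, had the highest mean of the list over all 14 aortas. Their part in the Wnt16 values was not tested. Among the other ligands Wnt2 had the widest difference, 1.42 (SE 0.684, edgeR adjusted p = 0.758), again with KO-SFD replicates 1 and 2 high. In the fit to all 14 aortas Wnt2 passed the count filter only with these 2 aortas. The Wnt2 difference ran from 0.67 without KO-SFD replicate 2 to 2.02 without WT-SFD replicate 2. Wnt2b was at 14.6, 14.2 and 14.4 FPM in KO-SFD, between the WT-SFD values of 9.02 and 16.2, and its log2 fold change was 0.35 (SE 0.208), or -0.17 (SE 0.275) without the 4 adipocyte-rich aortas.

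KO against WT on HFD called 0.0811% of all genes (12 genes) and none of the 9 ligands. Unadjusted p values under 0.05 were found for 5.35% of all genes and 2 of 9 ligands, groups did not overlap for 4.18% of all genes and 1 ligand, and DESeq2 called 40 genes but no ligand. Wnt9a stood at 8.47 ± 0.651 FPM in KO-HFD (SD, n = 4) against 11.6 ± 1.97 FPM in WT-HFD aortas (SD, n = 4). WT-HFD replicate 3, at 8.97 FPM, lay within the KO range, and the log2 fold change was -0.45 (SE 0.151, edgeR adjusted p = 0.718). None of these 8 aortas was rich in adipocyte transcripts, and without the 4 rich SFD aortas the value was -0.45 too.

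Wnt10b, a ligand that restrains adipocyte differentiation, was at 1.22, 1.21, 1.25 and 1.79 FPM in WT-HFD and at 0.856, 1.03, 0.480 and 0.274 FPM in KO-HFD aortas. Each KO value lay below each WT value, at 2 to 15 counts per aorta over all groups. WT-HFD aortas held 12 to 14 counts and KO-HFD aortas 2 to 11. In the fit to all aortas Wnt10b passed the count filter only with the WT-HFD aortas, the high group of this comparison. The lack of overlap is therefore a description and no support for a difference. In the fit KO minus WT was -1.0 on the log2 scale (SE 0.418, edgeR adjusted p = 0.887), from -1.31 without KO-HFD replicate 2 to -0.80 without KO-HFD replicate 4. The remaining 7 ligands tested ran from -0.46 for Wnt2 to 0.70 for Wnt5b, all with an unadjusted p over 0.05.

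The difference of the diet effect between genotypes in the aorta was tested as an interaction. edgeR called 0% of all genes, 4.37% of all genes and 1 of 9 ligands had an unadjusted p under 0.05, and DESeq2 called 2 genes but no ligand. The ligand was Wnt9a, with a diet effect of 0.65 in WT and 0.00 in KO aortas and a difference of -0.65 (SE 0.237, edgeR adjusted p = 0.998). It ran from -0.77 without WT-SFD replicate 3 to -0.58 without WT-HFD replicate 1, and was -0.45 (SE 0.376, edgeR adjusted p = 1.00) without the 4 adipocyte-rich aortas. The diet and genotype comparisons share libraries, so these values are not independent of each other.

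**Figure D3:**
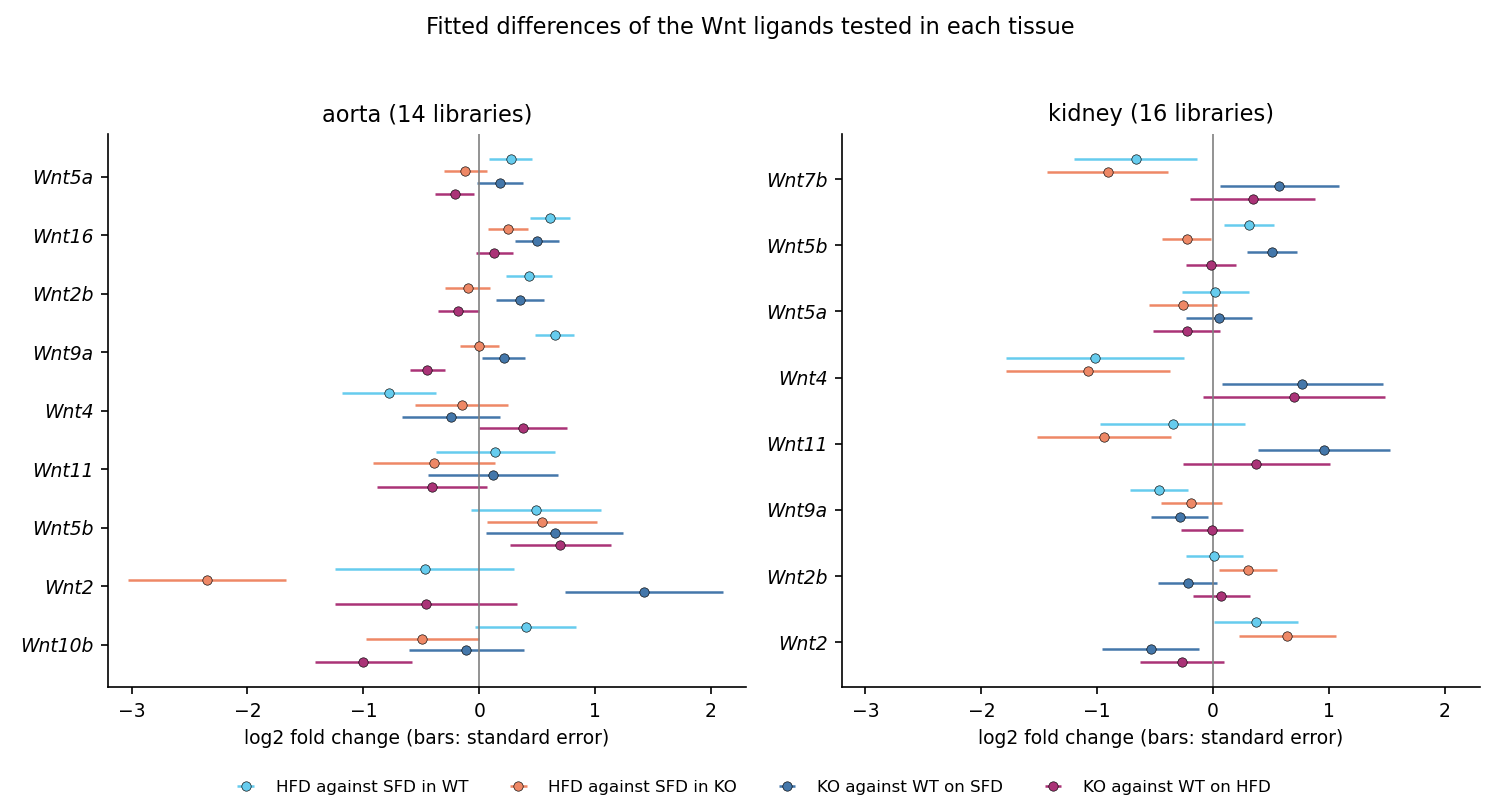
Fitted log2 fold changes with standard errors of the ligands tested, for both diet and both genotype comparisons, in the aorta (left) and the kidney (right). In the aorta Wnt9a sits at 0.65 for diet in WT and at 0.00 for diet in KO, and in the kidney the bars of Wnt4, Wnt7b and Wnt11 are the widest.

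In the kidney no ligand was called in any comparison, and Wnt4, Wnt7b and Wnt11 varied so much between mice of 1 group that differences of about 1 on the log2 scale stayed within 2 standard errors. Of 15034 genes tested, 8 were ligands. Their median log2 fold changes were -0.17 and -0.24 for HFD in WT and KO and 0.28 and 0.03 for KO against WT on SFD and HFD, beside 0.00 over all genes in each.

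For HFD in WT kidneys edgeR called 0.964% of all genes and 0 of 8 ligands. Unadjusted p values under 0.05 were found for 8.05% of all genes and no ligand, groups did not overlap for 5.01% of all genes and no ligand, and DESeq2 called 263 genes but no ligand. Wnt9a came closest, at 3.23 ± 0.937 FPM in SFD (SD, n = 4) and 2.29 ± 0.427 FPM in HFD kidneys (SD, n = 4), with a log2 fold change of -0.47 (SE 0.249, edgeR adjusted p = 0.698). For HFD in KO kidneys edgeR called 2.39% of all genes and 0 of 8 ligands. Here 16.1% of all genes and no ligand had an unadjusted p under 0.05, groups did not overlap for 8.87% of all genes and no ligand, and DESeq2 called 695 genes but no ligand. The diet effect in KO kidneys was -1.08 (SE 0.706) for Wnt4, -0.94 (SE 0.576) for Wnt11 and -0.91 (SE 0.522) for Wnt7b. With 1 mouse left out these ran from -1.75 to -0.76, from -1.50 to -0.58 and from -1.32 to -0.57, in this order.

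For KO against WT on SFD edgeR called 0.0133% of all genes (2 genes) and 0 of 8 kidney ligands. Unadjusted p values under 0.05 were found for 8.69% of all genes and 1 ligand, groups did not overlap for 3.98% of all genes and no ligand, and DESeq2 called 26 genes but no ligand. The ligand was Wnt5b, a relative of Wnt5a, at 8.35, 6.79, 6.24 and 7.08 FPM in WT-SFD and at 7.18, 13.3, 12.4 and 7.70 FPM in KO-SFD kidneys. KO-SFD replicates 2 and 3 were high, and the other KO mice lay within the WT range. The log2 fold change was 0.51 (SE 0.216, edgeR adjusted p = 0.549), from 0.36 without KO-SFD replicate 2 to 0.65 without KO-SFD replicate 1.

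Wnt5a, Wnt9a, Wnt2b and Wnt2 had SDs within groups of 0.48, 0.36, 0.34 and 0.43 on the log2 scale, and Wnt5b had 0.32. Wnt5a was at 22.1, 18.0, 19.0 and 15.3 FPM in WT-SFD, 27.0, 15.1, 18.0 and 15.1 in WT-HFD, 25.9, 14.7, 17.1 and 19.0 in KO-SFD and 25.2, 19.8, 7.91 and 10.9 in KO-HFD kidneys. The 2 lowest were KO-HFD replicates 3 and 4, and all 4 group ranges overlapped. Wnt9a was at 4.5, 3.33, 2.78 and 2.33 FPM in WT-SFD, 2.59, 2.35, 2.56 and 1.67 in WT-HFD, 2.65, 1.78, 2.81 and 3.11 in KO-SFD and 2.82, 2.77, 1.90 and 1.51 in KO-HFD kidneys. WT-SFD replicate 1 was highest. Wnt2b ran from 1.08 to 2.51 FPM and Wnt2 from 0.256 to 0.880 FPM, the latter at 5 to 18 counts. Mean Wnt2 was lowest in KO-SFD, with 0.339 ± 0.101 FPM (SD, n = 4), and highest in WT-HFD, with 0.646 ± 0.194 FPM (SD, n = 4). Wnt16, the second ligand of the aorta, had 1 to 12 counts per kidney and did not pass the count filter, with group means from 0.323 to 0.425 FPM.

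For KO against WT on HFD edgeR called 0% of all genes in the kidney, 1.75% of all genes and no ligand had an unadjusted p under 0.05, and groups did not overlap for 1.32% of all genes and no ligand. The interaction called 0% of all genes, and 3.35% of all genes and no ligand had an unadjusted p under 0.05. DESeq2 called 1 gene in each of these, not a ligand.

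**Figure D4:**
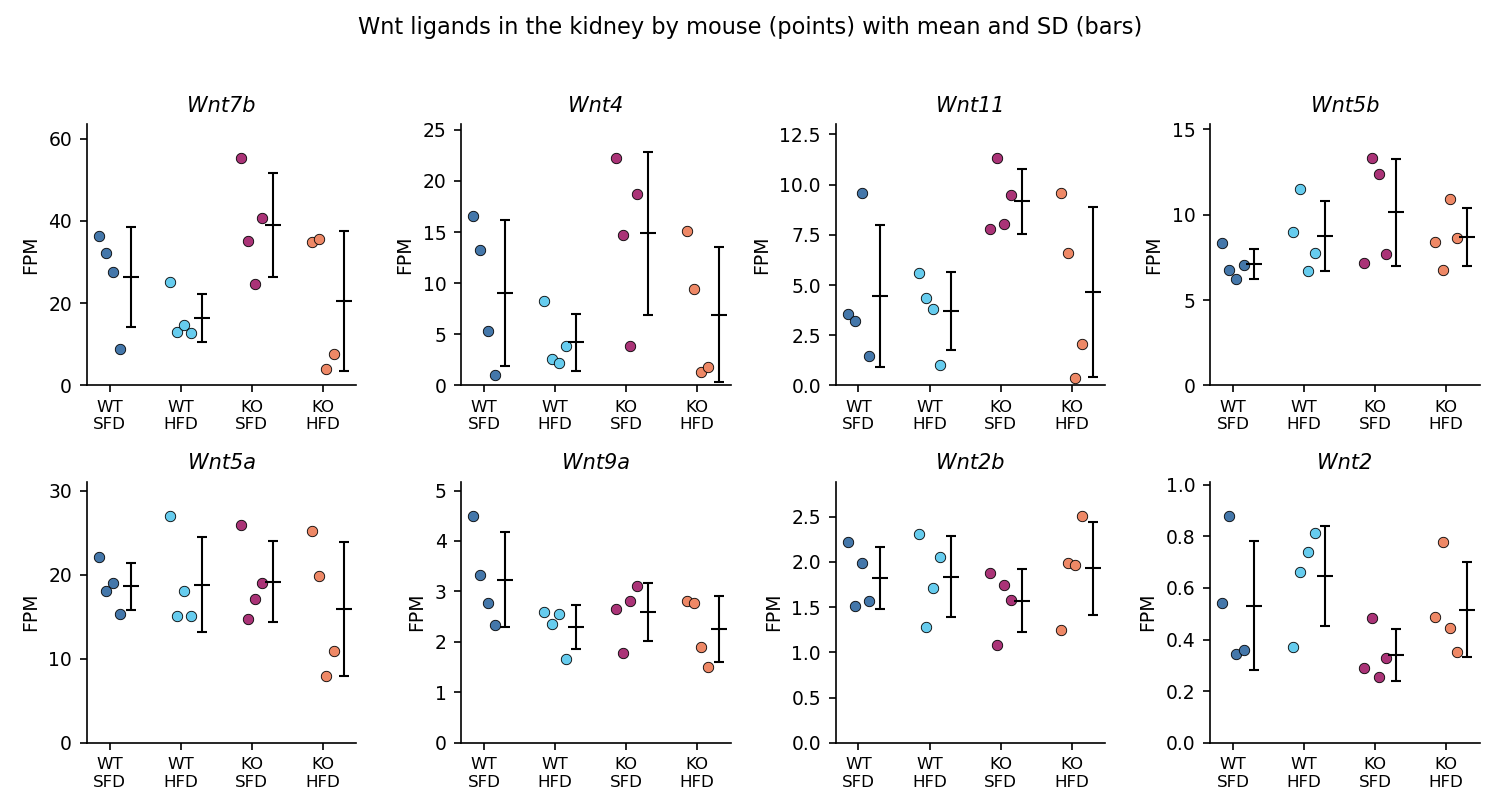
FPM of the 8 ligands tested in the kidney, by group, with 1 point per mouse and the mean with SD beside the points. Wnt7b, Wnt4 and Wnt11 spread widely within groups, and KO-HFD holds 2 high and 2 low mice for each of them.

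Wnt4, Wnt7b and Wnt11 moved with the collecting duct markers from kidney to kidney, and also with markers of other nephron parts. Wnt4, which drives the formation of nephrons in the embryo and is also made in the medulla, was at 16.6, 13.2, 5.34 and 1.03 FPM in WT-SFD, 8.28, 2.60, 2.22 and 3.87 in WT-HFD, 22.2, 14.7, 3.89 and 18.7 in KO-SFD and 15.1, 9.47, 1.33 and 1.76 in KO-HFD kidneys. Wnt7b was at 36.4, 32.3, 27.7 and 8.97 FPM in WT-SFD, 25.2, 13.1, 14.7 and 12.7 in WT-HFD, 55.2, 35.2, 24.7 and 40.8 in KO-SFD and 35.0, 35.5, 4.11 and 7.54 in KO-HFD kidneys. Wnt11 was at 3.58, 3.20, 9.59 and 1.48 FPM in WT-SFD, 5.60, 4.34, 3.81 and 1.00 in WT-HFD, 7.81, 11.3, 8.03 and 9.50 in KO-SFD and 9.60, 6.58, 0.38 and 2.06 in KO-HFD kidneys. The highest and the lowest kidney differed 21.6-fold for Wnt4, 13.4-fold for Wnt7b and 29.7-fold for Wnt11. Their SDs within groups, 1.41, 0.97 and 1.24 on the log2 scale, exceeded those of 99.4%, 97.9% and 99.0% of all genes tested, for which the median was 0.24.

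The collecting duct list had 9 of 10 markers tested, with Hsd11b2, in the part of chromosome 8 without counts, listed at 0, and its most abundant gene, the water channel Aqp2, ran from 434 to 1513 FPM. The mean of the 9 markers was 6.08, 5.85, 6.03 and 5.43 log2 CPM in WT-SFD, 6.01, 5.56, 5.50 and 5.54 in WT-HFD, 6.30, 6.22, 5.86 and 6.31 in KO-SFD and 6.25, 6.20, 5.26 and 5.42 in KO-HFD kidneys. Their summed level ran from 870 to 1978 FPM. KO-HFD replicates 3 and 4 and WT-SFD replicate 4 were lowest in the mean, and were also low in Wnt4, Wnt7b and Wnt11.

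Over the 16 kidneys, which share the library scale, the mean of these markers correlated with Wnt7b at r = 0.95 (0.96 within groups), with Wnt4 at 0.93 (0.91 within groups), with Wnt11 at 0.84 (0.80 within groups) and with Wnt5a at 0.75 (0.88 within groups). With Wnt5b it was -0.11. The proximal tubule markers ran the other way, at r = -0.86 for Wnt7b, -0.79 for Wnt11 and -0.72 for Wnt4, and so did the podocyte markers, at -0.78 for Wnt11, -0.69 for Wnt7b and -0.65 for Wnt4. Thick limb markers gave r = 0.82 for Wnt7b and for Wnt11, where the value within groups, 0.85, was above that of the collecting duct, and 0.59 for Wnt4. In bulk tissue, fewer cells of a type and less RNA per cell cannot be told apart. The inner medulla and urothelium markers also moved with these ligands, at r = 0.91 for Wnt4, 0.85 for Wnt7b and 0.64 for Wnt11, and the parts of these cell types in the spread were not separated.

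With the collecting duct mean as a covariate the diet effects of these ligands were smaller in size. In WT kidneys Wnt4 had -1.02 before and -0.22 after, and Wnt7b -0.67 and -0.07. In KO kidneys Wnt4 had -1.08 before and -0.21 after, and Wnt7b -0.91 and -0.32. For Wnt7b in WT the standard error went from 0.532 to 0.188. Wnt11 had -0.35 before and 0.21 after in WT, and -0.94 and -0.44 in KO. The differences of KO against WT changed sign for some ligands in this fit. On HFD Wnt7b had 0.34 before and -0.46 after (edgeR adjusted p = 1.00), Wnt4 had 0.70 and -0.40, and Wnt11 had 0.37 and -0.34, while Wnt5a had -0.23 and -0.49 (SE 0.163, edgeR adjusted p = 1.00). On SFD Wnt4 had 0.77 before and -0.41 after, Wnt7b had 0.57 and -0.21, Wnt5a had 0.05 and -0.35, and Wnt11 had 0.96 and 0.31. Without the covariate, leaving out 1 mouse moved some of these values too. Without WT-SFD replicate 3, Wnt11 was at 0.45 for diet in WT and at 1.76 for KO against WT on SFD. For KO against WT on HFD, Wnt4 was at 0.04 and Wnt11 at -0.19 without KO-HFD replicate 1. Wnt7b was at -0.07 there without KO-HFD replicate 2.

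**Figure D5:**
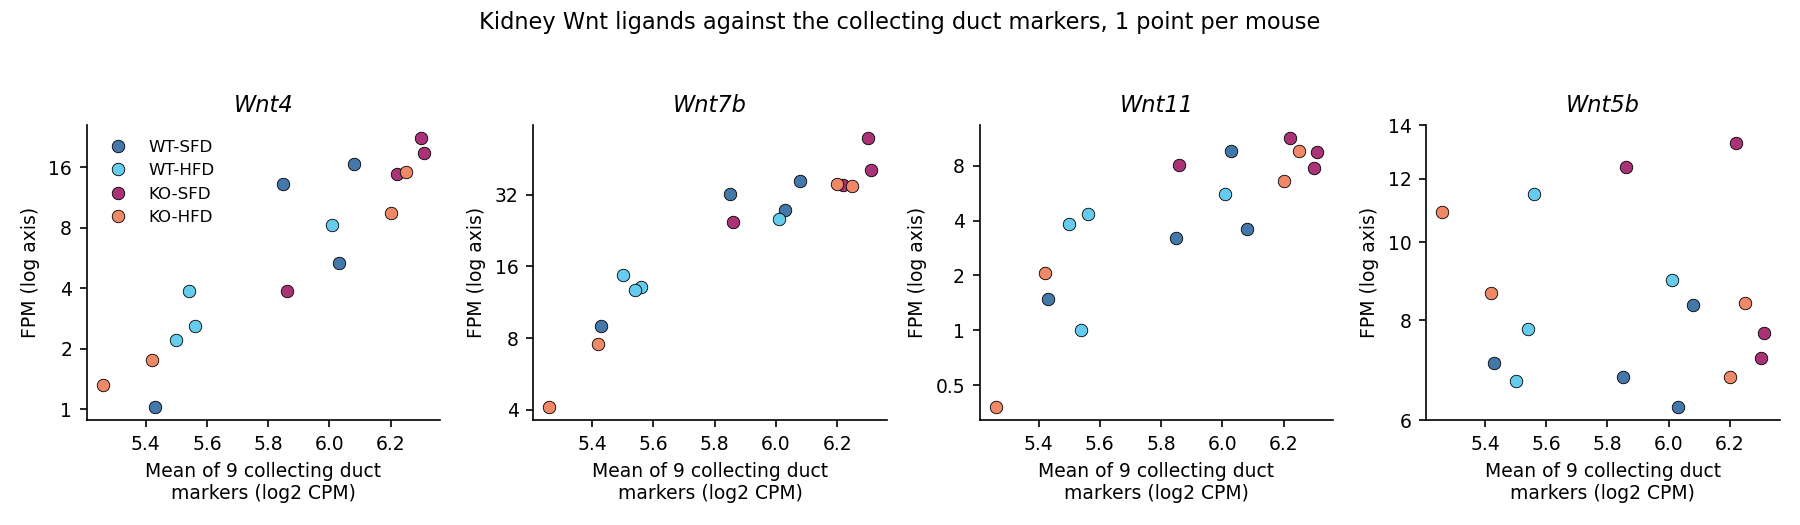
FPM (log axis) of Wnt4, Wnt7b, Wnt11 and Wnt5b in 16 kidneys against the mean log2 CPM of 9 collecting duct markers, with 1 point per mouse coloured by group. Wnt4, Wnt7b and Wnt11 are higher at higher marker means (r = 0.93, 0.95 and 0.84), and Wnt5b shows no such line (r = -0.11).

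Genes most like each ligand were sought among all tested genes outside the family, by Pearson's r of log2 CPM over the libraries of a tissue. In the kidney Wnt4 was most like Klrg2 (0.99), Psca (0.97) and Muc1 (0.97), Wnt7b like Slc4a11, Proser2 and Adora1 (0.96 each), Wnt11 like Ppp1r1b (0.96), Pla1a (0.94) and Cldn19 (0.94), and Wnt5a like Tbc1d9 (0.92), Pik3r3 (0.92) and Erg (0.91). Wnt5b was most like Fam76a, Tm6sf2 and Herpud1 (0.89 each), Wnt2b like Atad1 (0.88), Slc8a1 (0.87) and Ube2w (0.87), and Wnt9a like Pm20d2 (0.85), Egf (0.84) and Ptprj (0.82). Psca is also on the list of inner medulla and urothelium markers. In the aorta Wnt16 was most like Oas3 (0.94), Nucb1 (0.91) and Kctd10 (0.91), Wnt5a like Id2 (0.89), Cbs (0.89) and Atp1b2 (0.86), Wnt2b like Plek (0.89), Txndc5 (0.87) and Map3k2 (0.86), and Wnt9a like Man2b2 (0.86), Plac9a (0.83) and Tmcc2 (0.82). Wnt4 was most like Tomm5, Farp1 and Gm17251 (0.89 each), and Wnt2 like Ap3s2 (0.85), Pex14 (0.84) and Heatr6 (0.82). Wnt5b was most like Agpat4 (0.89), Zfp324 (0.85) and Tesc (0.82), Wnt11 like Celsr2 (0.85), Naa40 (0.85) and Flrt3 (0.84), and Wnt10b like Hlx (0.83), Acyp1 (0.82) and Egfros (0.81). These are the 3 highest of 14796 or 15034 values each, over 14 or 16 libraries.

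The other genes of the pathway were followed by their roles. In WT aortas on HFD no gene of these lists was called by edgeR. Of 12 receptors tested, 6 had an unadjusted p under 0.05 and all 6 were higher, beside 17.0% of all genes in either direction, with a median log2 fold change of 0.34. The same figure of the study shows several of these receptors and Sfrp1, so they are not independent evidence either. Fzd2, a receptor for Wnt5a, was at 37.5, 46.1 and 70.9 FPM in WT-SFD and at 75.2, 71.4, 91.1 and 89.4 FPM in WT-HFD aortas. The HFD mice were all above the SFD mice, among which the adipocyte-rich replicates were lowest, and the log2 fold change was 0.67 (SE 0.20, edgeR adjusted p = 0.0943). Fzd1 (0.50, SE 0.151, edgeR adjusted p = 0.0976) and Ror1 (0.55, SE 0.166, edgeR adjusted p = 0.0989) were next. Without the 4 adipocyte-rich aortas Fzd2 was at 0.21 (SE 0.196), Fzd1 at 0.06 (SE 0.131) and Ror1 at 0.19 (SE 0.188). Of the other 3 counted, Fzd7 went from 0.30 to 0.14, Fzd8 from 0.53 to 0.50 and Fzd6 from 0.39 to 0.64 (SE 0.243).

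Among 9 secreted inhibitors tested, 2 were higher and 2 lower at an unadjusted p under 0.05, again beside 17.0% of all genes. Sfrp1, which binds Wnt proteins outside the cell, averaged 68.2 ± 25.2 FPM in WT-SFD (SD, n = 3) and 119 ± 23.0 FPM in WT-HFD aortas (SD, n = 4), with a log2 fold change of 0.80 (SE 0.235, edgeR adjusted p = 0.0890), or 0.40 (SE 0.205) without the 4 rich aortas. The other 3 inhibitors counted came nearer to 0 without them, Sfrp5 from -2.13 to -0.06, Dkk2 from -1.27 to -0.24 and Sost from 0.74 to 0.22. Among 7 genes of Wnt secretion 1 was lower, the cargo receptor Tmed5, with -1.63 (SE 0.410, edgeR adjusted p = 0.0686), and Wls, which carries Wnt proteins to the cell surface, averaged 77.8 and 78.8 FPM. Tmed5 was at 69.9 and 54.1 FPM in the adipocyte-rich WT-SFD replicates but at 14 FPM in replicate 3, inside the HFD range of 10.5 to 17.6 FPM, and at 0.08 (SE 0.252) on the log2 scale without the 4 rich aortas. Among 5 genes of the R-spondin group the receptor Lgr6 (0.48, edgeR adjusted p = 0.114) and the ligand Rspo3 (1.04, edgeR adjusted p = 0.173) were higher at an unadjusted p under 0.05. WT-SFD replicate 3 had Lgr6 at 296 FPM, within the HFD range of 285 to 391, and Rspo3 at 2.02 FPM, just below the lowest HFD value of 2.04, and without the 4 rich aortas the differences were 0.20 (SE 0.169) and 0.61 (SE 0.576). Of 13 genes of the cytoplasm and nucleus none, and of 10 target genes 1, the inhibitor Nkd1 (0.46, edgeR adjusted p = 0.128, 0.18 without the 4 rich aortas), had an unadjusted p under 0.05. The target gene Axin2 averaged 8.45 ± 2.58 FPM in WT-SFD (SD, n = 3) and 5.86 ± 1.73 FPM in WT-HFD (SD, n = 4).

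Of 11 planar polarity genes, Prickle1 was higher (0.43, or 0.10 without the 4 rich aortas) and Nfatc1 lower (-0.29, or -0.34 without them) at an unadjusted p under 0.05. DESeq2 called 3 of 12 receptors and 1 of 9 inhibitors in this comparison, beside 666 of 14796 genes. In KO aortas on HFD, where 7.85% of all genes had an unadjusted p under 0.05, no list had more than 2 such genes in 1 direction. Among them the inhibitor Dkk3 (0.52, edgeR adjusted p = 0.569) and the factor Tcf7l1 (0.35, edgeR adjusted p = 0.554) were higher. Tcf7 (-1.24, edgeR adjusted p = 0.558) and the target gene Apcdd1 (-0.75, edgeR adjusted p = 0.569) were lower. Without the 4 rich aortas these were at 0.26, 0.23, -1.61 and -0.69, in this order.

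In KO against WT aortas on SFD, Sfrp1 averaged 136 ± 33.2 against 68.2 ± 25.2 FPM (SD, n = 3 each) without overlap, and its log2 fold change was 1.00 (SE 0.249, edgeR adjusted p = 0.485). Ror1 (0.56) and Nkd1 (0.52) were also higher in KO at an unadjusted p under 0.05 (edgeR adjusted p = 0.680 for both), as were Rspo3 (1.05), the inhibitor Sfrp4 (0.86) and Prickle1 (0.39). The inhibitor Dkk2 (-1.26, edgeR adjusted p = 0.737) and Vps35 (-0.32, edgeR adjusted p = 0.708), a part of the retromer that recycles Wls, were lower. The share of all genes at this limit was 6.54%. Without the 4 rich aortas Sfrp1 was at 0.68 (SE 0.252), Ror1 at 0.26, Nkd1 at 0.41, Rspo3 at 0.87, Sfrp4 at 0.44, Prickle1 at 0.10, Dkk2 at -0.83 and Vps35 at -0.27. On HFD the one gene of these lists with an unadjusted p under 0.05 was the target gene Wisp1 (0.55, edgeR adjusted p = 0.896). In the interaction Sfrp1 had -1.01 (edgeR adjusted p = 0.998), and 4 of 10 target genes, Tcf7, Nkd1, Nkd2 and Lef1, were negative with an unadjusted p under 0.05 and none positive, beside 4.37% of all genes. Without the 4 rich aortas Sfrp1 was at -0.70 (SE 0.281), and the 4 target genes stayed negative, Lef1 at -3.10 (SE 1.58), Tcf7 at -1.73 (SE 0.891), Nkd2 at -1.11 (SE 0.545) and Nkd1 at -0.38 (SE 0.259), but with these standard errors none had an unadjusted p under 0.05. Tcf7 and Lef1 are also known as lymphocyte genes, and all 6 leucocyte markers tested were negative in the interaction, with a median of -0.57 and 1, the B cell gene Cd79a (-3.60, SE 0.932, edgeR adjusted p = 0.96), at an unadjusted p under 0.05. Lef1 was high in 2 aortas, at 8.67 FPM in WT-HFD replicate 1 (0.767 to 1.56 FPM in the rest of its group) and at 5.71 FPM in KO-SFD replicate 3 (0.697 and 1.74 FPM). The part of leucocytes in these values was not tested.

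In the kidney 1 gene of these lists was called: Sostdc1, a secreted inhibitor made in the distal nephron, fell on HFD in KO kidneys. It was at 118, 117, 113 and 121 FPM in KO-SFD and at 76.3, 87.5, 51.7 and 71.9 FPM in KO-HFD kidneys. All HFD values lay below all SFD values, and the log2 fold change was -0.70 (SE 0.155, edgeR adjusted p = 0.0204). It was called in 19 of 25 alternatives, between -0.82 and -0.56, and had -0.56 with an adjusted p of 0.0533 with the collecting duct covariate and -0.57 with an adjusted p of 0.0647 without KO-HFD replicate 3. In WT kidneys its diet effect was -0.37 (edgeR adjusted p = 0.505). Some other inhibitors were higher on HFD: Sfrp5 (0.81) and Sfrp1 (0.34) in KO kidneys, and Sfrp5 (1.55) and Dkk3 (0.36) in WT kidneys. With the collecting duct covariate these were at 0.34, 0.28, 1.34 and 0.40, in this order. Of 14 receptors tested in KO kidneys 3 were higher and 2 lower on HFD at an unadjusted p under 0.05, beside 16.1% of all genes, led by Fzd7 (0.49, edgeR adjusted p = 0.0749) and Fzd8 (0.40, edgeR adjusted p = 0.0754).

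For KO against WT on SFD in the kidney the target gene Ccnd1, a cyclin of the G1 phase, was at 143, 103, 107 and 93.2 FPM in WT and at 155, 146, 189 and 159 FPM in KO. All KO kidneys lay above all WT kidneys, with a log2 fold change of 0.54 (SE 0.131, edgeR adjusted p = 0.398). Lef1, a nuclear partner of beta-catenin (0.88, edgeR adjusted p = 0.472), was also higher. The inhibitors Sost (-1.44, edgeR adjusted p = 0.432) and Sfrp1 (-0.37, edgeR adjusted p = 0.432) were lower. The inhibitor Dkk3 went the other way (0.26), with all KO kidneys above all WT kidneys. Fzd7 (-0.37), Fzd8 (-0.34), Lgr4 (-0.26) and Vps35 (-0.18) were lower too. In this comparison 8.69% of all genes had an unadjusted p under 0.05 in either direction. With the collecting duct mean as a covariate Ccnd1 was at 0.48 (SE 0.130), Lef1 at 0.54 (SE 0.251), Sost at -1.39 (SE 0.451) and Sfrp1 at -0.32 (SE 0.120), all with the same sign. On HFD Znrf3, a ubiquitin ligase that removes Frizzled receptors and stands on both the R-spondin and the target list, was at -0.33, and the planar polarity gene Vangl2 at 0.32, both at an unadjusted p under 0.05 (edgeR adjusted p = 1.00 for both).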

How the data were processed

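Aortas and kidneys were sequenced as paired-end total RNA after removal of ribosomal RNA. The deposited values are raw counts per gene: the authors trimmed reads with cutadapt, aligned them to mm10 with TopHat and counted them with featureCounts. Strand and multi-mapping settings are not given in the sources used here. Aortas were sequenced at a university core and kidneys by a company. All per-sample columns were mapped to samples by their labels. In R 4.3.3, edgeR 4.0.16 (filterByExpr with a minimum count of 10, TMM, glmQLFit and glmQLFTest, Benjamini-Hochberg over all genes tested) was fitted once per tissue to the 4 groups, with DESeq2 1.42.0 as an alternative. SEs were the log2 fold change divided by the root of F. FPKM used merged exon lengths of GENCODE vM21, matched for 40254 of 41128 genes. Log2 CPM used a prior count of 2. The model was tested on simulated data. No 2 libraries had counts that agree within sampling noise. Each library was 1 mouse. The edgeR p-values set a difference between groups against the spread between mice. That spread was estimated over the 4 groups of a tissue, with information shared between genes.

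The ligands and gene lists were chosen with earlier results of these data known, and lists were not tested as sets. Every ligand was named in both tissues. Of each pathway list, called genes were eligible for naming, and otherwise up to 3 with the smallest unadjusted p per comparison. Further genes were added after their values were seen: Axin2, Wls, Lef1 in the aortic interaction, and the remaining receptors and inhibitors counted for diet in WT aortas. Pathway genes of KO against WT on SFD with an unadjusted p under 0.05 were added in the same way. So were further inhibitors for diet in the kidney. For likeness, the 3 genes with the highest Pearson r were named for each ligand tested, and 1 such result is not reported here. Alternatives comprised DESeq2, other scaling, no filter, protein-coding genes only, the compared groups only, marker covariates and leaving out each library. The fibroblast and inner medulla covariates, the legacy test and the fit without the 4 adipocyte-rich aortas were added after the data were seen.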

Additional observations from a re-analysis of the deposited data

Results flagged for a closer look

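In groups of 4 mice, a sample was picked out when its gap to the nearest other mouse took up most of the group's range (Dixon's 95% limit). This held in 5 of 60 groups of Wnt levels. For normally distributed values chance alone picks about 1 in 20. That rate does not hold near 0 counts, because a group in which only 1 mouse has a count is always picked. Wnt7b in WT-HFD aortas and Wnt10b in KO-HFD kidneys were such groups. In WT-HFD aortas Wnt5b was at 0.408 FPM in replicate 1 (4 counts) and at 1.25 to 1.41 FPM in the others. Wnt10b was at 1.79 FPM in replicate 4 (14 counts) and at 1.21 to 1.25 FPM in the others. Wnt7b was at 0.209 FPM in replicate 3 (2 counts) and had no count in the others. In the kidney Wnt7b was at 25.2 FPM in WT-HFD replicate 1 (544 counts) and at 12.7 to 14.7 FPM in the others, and that mouse also had the highest collecting duct mean of its group, 6.01 against 5.50 to 5.56 log2 CPM. Wnt10b was at 0.0433 FPM in KO-HFD replicate 2 (1 count), with no count in the others.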

How the results depend on the processing

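The number of ligands called was 0 in all 10 comparisons, and differed under an alternative in HFD against SFD in WT aortas alone. There DESeq2 called 2 ligands (Wnt9a and Wnt16), and leaving out 1 library gave 0 to 2: Wnt9a and Wnt2b without WT-SFD replicate 3, and Wnt9a and Wnt16 without KO-SFD replicate 1. Wnt2b, at 0.43 in this comparison, had the opposite sign without the 4 adipocyte-rich aortas (-0.08), a fit that leaves 1 mouse in each SFD group and assumes it varies like the others. In the same fit Wnt5a went from 0.27 to -0.11, Wnt4 from -0.78 to 0.06 and Wnt5b from 0.49 to -0.26, all with an unadjusted p over 0.05 in both. The cause was not tested. For diet in WT aortas, Wnt2 went from -0.47 to 0.14 without WT-SFD replicate 2. Wnt11 went from 0.14 to -0.14 without WT-SFD replicate 3. Over all alternatives Wnt9a ran from 0.44 to 0.77 and Wnt16 from 0.40 to 0.73. With library totals the median of all aorta genes moved to 0.10 and -0.11 for diet in WT and KO and to 0.27 and 0.07 for KO against WT on SFD and HFD. Wnt2 in the KO diet comparison ran from -2.89 without KO-SFD replicate 3 to -1.57 without KO-SFD replicate 2. No paired analysis was possible because replicate numbers follow the order of the samples and pair no mice. Aortas held about 9.0 M counts at the median, and in WT aortas the diet effect had an SE of 0.773 for Wnt2 (1 to 32 counts) against 0.176 for Wnt16 (118 to 359 counts).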

Other observations

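Wnt8b, a ligand outside the 10 and known from the brain, was rare in the kidney but separated 2 pairs of groups. It was at 0.108, 0.0628, 0.685 and 0.0448 FPM in WT-SFD, 0.972, 0.255, 0.227 and 0.0478 in WT-HFD, 1.93, 0.916, 0.818 and 1.2 in KO-SFD and 0.542, 0.692, 0.190 and 0.201 in KO-HFD kidneys. All KO-SFD kidneys lay above all WT-SFD and all KO-HFD kidneys. Groups did not overlap for 3.98% of all genes in the first comparison and 8.87% in the second. Counts were 16 to 40 in KO-SFD, 1 to 20 in WT-SFD and 3 to 16 in KO-HFD kidneys. WT-SFD replicates 1, 2 and 4 lay below the level of 3 counts, so the difference from WT-SFD is measured near the floor. The log2 fold change was 2.13 (SE 0.635, edgeR adjusted p = 0.432) for KO against WT on SFD and -1.52 (SE 0.595, edgeR adjusted p = 0.220) for HFD in KO, so neither passed the adjusted test. With the collecting duct mean as a covariate these were 1.31 (SE 0.532) and -0.88 (SE 0.460). Both comparisons share the KO-SFD kidneys. Wnt9b, which starts nephron formation in the embryo, ran from 1.33 to 18.5 FPM over the 16 kidneys.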
